A study of Mus musculus with 12 samples.

Results

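The transcripts of 33 lysosomal genes were followed in macrophages grown from the bone marrow of mice of 2 ages: hydrolases, their activator proteins, lipid carriers, membrane proteins, the progranulin gene Grn and the regulator gene Tfeb. The genes were taken by name from the count table, leaving out cathepsins and the proton pump. All 33 of 33 names were found among 55401 gene IDs, and all 33 passed the low-count filter that left 12620 genes for testing. Marrow of C57BL6-background animals was cultured until day 7 with M-CSF, the growth factor that drives macrophage formation, at 20 ng/mL. The young group held 6 libraries from animals aged 8 weeks and the old group 6 libraries from animals aged 12 months, with no genotype, strain or treatment difference given in the labels. Libraries are labelled as biological replicates, but no label says that each is from an animal of its own. The p-values then cover only the library-to-library spread, which may be technical. The series concerns macrophages that meet nanoparticles, but none of these 12 libraries is labelled as exposed to any.

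Lysosomes are acidic organelles in which macrophages break down what they engulf. Soluble hydrolases reach them mostly by way of mannose 6-phosphate tags and cut lipids, sugar chains and proteins into parts that transporters and channels of the lysosomal membrane release. The transcription factor TFEB and its relatives bind a short palindrome, the CLEAR element, near many lysosomal genes, and inherited loss of single hydrolases causes storage diseases in which macrophages often fill with undigested material.

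Total counts per library ranged from 22150081 to 25169045 in the young and from 19345587 to 22356812 in the old group. Macrophage markers held 29855 to 53966 CPM (counts scaled to the library total) in young and 36802 to 50553 CPM in old libraries, summed over 12 genes, of which none was at 0. Cell cycle genes, summed over 26 genes, were at 4049 CPM in young replicate 6, 2529 CPM in old replicate 2 and 1733 CPM in old replicate 3, against 767 to 1368 CPM in the other libraries. Osteoclast markers (9 genes, Calcr at 0) summed to 443 CPM in old replicate 6 and to 149 to 232 CPM in the others. Most of the 443 CPM was 1 gene, Atp6v0d2, a proton pump subunit, at 335 CPM. Nfatc1 reached 75.7 CPM in the young and 81.9 CPM in the old group. Ctsk, Acp5, Dcstamp and Mmp9 reached 16.8, 5.70, 3.56 and 2.94 CPM in the young group. In the old group they reached 17.9, 7.72, 5.08 and 2.71 CPM. These group maxima need not come from 1 library. Neutrophil markers (11 genes) summed to 48.4 to 213 CPM in the young and 98.2 to 219.9 CPM in the old group. Csf3r alone held 39.0 to 179.8 CPM in the young and 77.7 to 164.2 CPM in the old group. B, T and NK cell markers (9 genes) summed to 30.1 to 319 CPM in the young and 116 to 260.4 CPM in the old group. Only 1 of these, Ighm, passed the low-count filter, at 29.9 to 319.1 CPM in young and 87.7 to 259.8 CPM in old libraries. Mean Ighm was 212.6 CPM in the young group, where the mean sum was 212.8 CPM. Dendritic cell (8 genes), mast cell and basophil (6, Tpsb2 at 0), and stromal and endothelial (8, Col3a1 at 0) markers summed to at most 51.9 CPM in any library. All 12 libraries held Xist, at 327 to 501 CPM, and 0 counts of Ddx3y, Eif2s3y, Kdm5d and Uty, so the groups did not differ in the sex these genes show. In bulk RNA, fewer cells of a type and less RNA per cell cannot be told apart.

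The first question was how abundant each lysosomal transcript is. RPKM are counts scaled to exon length and to the TMM-adjusted library size. Psap encodes prosaposin, the precursor of the saposin proteins that help lipid hydrolases reach their substrates. It stood far above the rest at 10871 ± 1911 RPKM (mean ± SD over 12 libraries). It ranked 2 among all genes per length. Grn (1271 ± 154 RPKM), Lamp1 (1211 ± 82.1 RPKM), Hexa (1053 ± 123 RPKM) and Laptm5 (731 ± 39.7 RPKM) came next. Psap lay 8.55-fold above Grn, and the lowest member, Manba, was at 6.93 ± 0.406 RPKM, 1569-fold below Psap. Even Manba lay above 4.69 RPKM, the median of the 12620 genes tested.

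These first 5 genes were the same in all 12 libraries, and the first 10 were the same in all 12. Psap was always first and Laptm5 always at rank 5, while Grn, Lamp1 and Hexa changed places between ranks 2 and 4. Grn and Lamp1 differed by less than the SD of Grn. Grn, Lamp1 and Hexa also share exon positions with a gene on the other strand, which adds uncertainty to their levels. Cd63 (348 ± 27.1 RPKM) and Npc2 (299.9 ± 26.9 RPKM) shared ranks 6 and 7. Lipa (198 ± 18.1 RPKM), Man2b1 (157 ± 16.3 RPKM) and Gusb (139 ± 12.0 RPKM) shared ranks 8 to 10. A middle group from Asah1 (103 RPKM) through Naglu, Tpp1, Fuca1, Glb1 and Gm2a to Lamp2 (71.5 RPKM) filled ranks 11 to 17 of the mean. Gaa, Neu1, Ppt1, Scarb2 and Gla followed between 41.7 and 49.5 RPKM. Galns (30.6 RPKM), Sgsh (22.0), Npc1 (20.9), Tfeb (17.02), Mcoln1 (16.2), Arsa (15.6), Smpd1 (14.6), Ids (11.8), Arsb (7.78) and Galc (7.63) closed the order above Manba. From rank 11 on, neighbours closer than the larger of their SDs were Asah1, Naglu and Tpp1, then Glb1, Gm2a and Lamp2, Gaa, Neu1 and Ppt1, Scarb2 and Gla, Sgsh and Npc1, Tfeb, Mcoln1, Arsa and Smpd1, and Arsb, Galc and Manba. Lengths were those of all annotated exons of a gene joined, so a gene with long, rarely used exons has a lower RPKM than its main transcript would give. Lamp2, with 9552 bases of exon, ranked 10 by CPM and 17 per length, and Galc, with 14879 bases, ranked 25 by CPM and 32 per length.

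**Figure D1:**
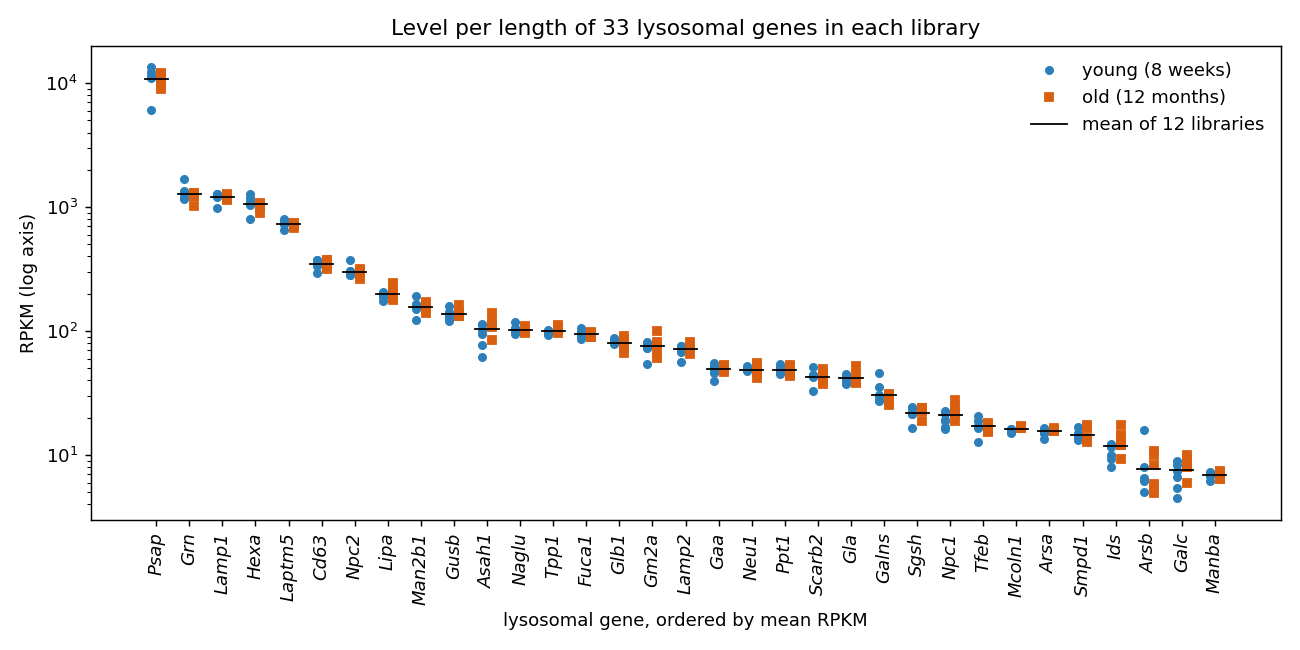
Level of the 33 lysosomal genes in each library in RPKM on a log axis, ordered by the mean of 12 libraries (black line). Circles are the 6 young and squares the 6 old libraries. Psap, at a mean of 10871 RPKM, stands apart from all others, and young and old points overlap throughout the order except for Mcoln1.

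The members took 5.28 ± 0.695% of all counts in young and 5.32 ± 0.275% in old libraries (SD, n = 6 each). Psap alone took 2.95 ± 0.604% in young and 2.99 ± 0.289% in old libraries. In young replicate 6 the Psap share was 1.74% (95% Wilson interval 1.74 to 1.75%), against 3.04 to 3.37% in the other young libraries. Psap made up 44.7 to 58.5% of member counts in young and 52.0 to 58.3% in old libraries. Without Psap, the members summed to 23543 ± 1783 CPM in the young and 23192 ± 473 CPM in the old group.

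Promoters were searched for the letters CACGTG, the core bound by TFEB-family factors, and for the longer TCACGTGA, which contains it. Both read the same on either strand. RefSeq promoter windows of GRCm38.p6, from 250 bases before to 50 bases after the start site, were matched for 30 of the 33 members by symbol, without Npc1, Asah1 and Galns. CACGTG was present in 8 of 30 windows (26.7%), against 7.24% of 27025 windows of the same length. TCACGTGA was present in 2 of 30 (6.67%), against 1.01% of all windows. The promoters of Gla (chrX:134600956-134601255, minus strand), Mcoln1 (chr8:3500269-3500568, plus strand) and Lamp1 (chr8:13158911-13159210, plus strand) are shown because they hold the longer form or the most copies, the last chosen after the search was seen. Capitals mark TCACGTGA in Gla and Mcoln1 and CACGTG in Lamp1.
Gla: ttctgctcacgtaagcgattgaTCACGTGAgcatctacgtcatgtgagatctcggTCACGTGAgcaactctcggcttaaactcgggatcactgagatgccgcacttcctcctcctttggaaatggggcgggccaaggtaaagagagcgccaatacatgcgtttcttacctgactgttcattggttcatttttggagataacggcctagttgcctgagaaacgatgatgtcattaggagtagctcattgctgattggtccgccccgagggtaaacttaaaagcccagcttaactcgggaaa
Mcoln1: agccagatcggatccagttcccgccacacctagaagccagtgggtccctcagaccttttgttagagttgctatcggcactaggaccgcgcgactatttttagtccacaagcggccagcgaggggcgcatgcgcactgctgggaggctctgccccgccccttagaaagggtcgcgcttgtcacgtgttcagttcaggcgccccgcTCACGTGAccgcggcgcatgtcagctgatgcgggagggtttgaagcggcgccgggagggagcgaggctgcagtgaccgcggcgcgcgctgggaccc
Lamp1: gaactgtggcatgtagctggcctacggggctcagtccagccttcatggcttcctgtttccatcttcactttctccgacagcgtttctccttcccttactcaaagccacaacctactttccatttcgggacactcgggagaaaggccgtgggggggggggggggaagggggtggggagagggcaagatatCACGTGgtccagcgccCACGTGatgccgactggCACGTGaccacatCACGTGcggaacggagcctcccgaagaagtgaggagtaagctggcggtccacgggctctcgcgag
The first letter of the 4 Lamp1 copies lay at -61, -45, -28 and -15, counted from the RefSeq start site as 0. The longer form lay at -228 and -195 in Gla and at -46 in Mcoln1, where a second CACGTG lay at -71.

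The other members with CACGTG held 1 copy each, shown with 10 bases on either side to compare the letters next to the core, which is in capitals. Naglu lies at chr11:101070011-101070036 and Glb1 at chr9:114401020-114401045, both plus strand. Gaa lies at chr11:119267813-119267838, plus strand, Sgsh at chr11:119355524-119355549 and Arsa at chr15:89477425-89477450, both minus strand.
Naglu: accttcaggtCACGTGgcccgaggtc
Glb1: gcttctgagtCACGTGgcctacagag
Gaa: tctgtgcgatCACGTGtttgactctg
Sgsh: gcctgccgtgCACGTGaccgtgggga
Arsa: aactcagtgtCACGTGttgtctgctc
The 8 genes with the letters ran from 15.6 to 1211 RPKM (median 45.6), and the 22 without from 6.93 to 10871 RPKM (median 84.6). Among these 8 genes the count table's own annotation starts at the RefSeq start for Lamp1 and upstream of it for the others, by at most 2 bases for Glb1 and Arsa and by more for Naglu, Gaa, Gla, Sgsh and Mcoln1. That start lies within the printed letters for Gla, Mcoln1, Naglu, Sgsh and Arsa. A match of letters is not a binding site, and windows without it may hold other forms.

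The second question was whether these genes differ between young and old macrophages. With edgeR's quasi-likelihood test, 0 of the 33 were called at an adjusted p of 0.05, against 0.0158% of all genes tested (2 of 12620, Bmpr1a and Gdf3). DESeq2 and limma voom also called 0 of the 33, against 11 and 3 of the 12620 genes. The log2 fold changes (positive is higher in old) were positive in 16 and negative in 17 members, from -0.20 for Galns to 0.30 for Ids. Their median was -0.0043, beside -0.010 and 47.5% positive over all genes tested. The estimate was smaller than its own standard error in 21 members. The 95% interval stayed within 1.5-fold in either direction for 29 of 33 members, and within 1.2-fold for 22. Asah1, Galc, Ids and Arsb were the 4 whose interval reached past 1.5-fold. At an unadjusted p below 0.05 there was 1 member, Npc1, which is 3.03% of members against 5.47% of all genes. The lowest edgeR adjusted p of any member was 0.77.

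**Figure D2:**
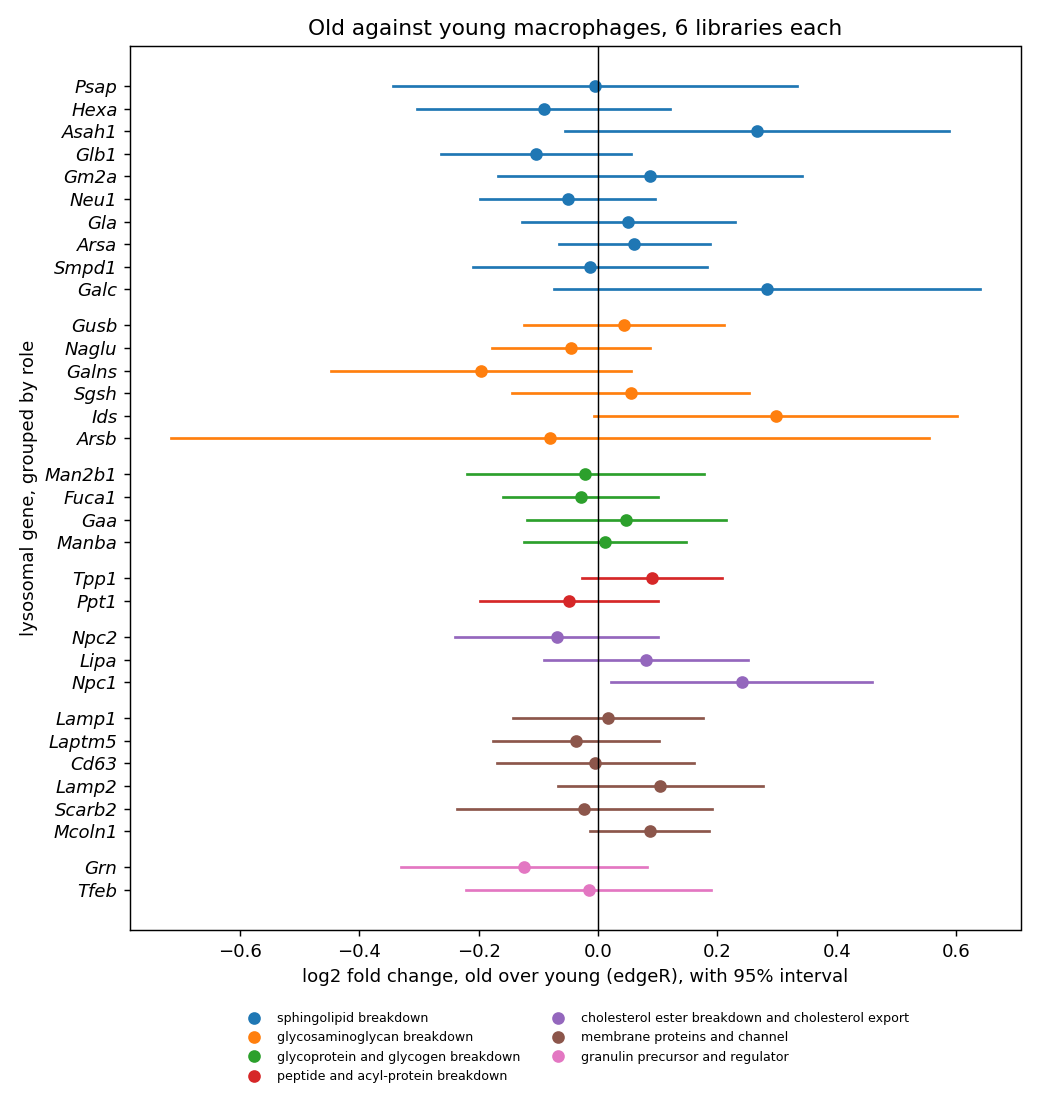
Log2 fold change of old over young for each lysosomal gene (point) with its 95% interval (line), grouped and coloured by role. The intervals of 32 genes include 0, and that of Npc1, from 0.02 to 0.46, does not before adjustment.

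Sphingolipid breakdown was covered by 10 members, 5 positive and 5 negative, with 0 called and a median log2 fold change of 0.02. Psap ranged from 16687 to 36743 CPM in young (median 31085) and from 24464 to 32990.4 CPM in old libraries (median 30858). Young replicate 6 was the lowest of all 12, the highest was young replicate 5, and the groups overlapped. The log2 fold change of Psap was -0.01 with a 95% interval of -0.34 to 0.33. Hexa, the alpha subunit of beta-hexosaminidase, which trims GM2 ganglioside, ranged from 1606 to 2571 CPM in young (median 2204) and from 1792 to 2144 CPM in old libraries (median 2078). Old values fell inside the young range. Its log2 fold change was -0.09 (95% interval -0.30 to 0.12), and ran from -0.16 without young replicate 6 to -0.04 without young replicate 5. Gm2a, the activator that lifts GM2 out of the membrane for that enzyme, had a mean of 301 ± 39.5 CPM in the young and 319.7 ± 54.4 CPM in the old group.

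Asah1, acid ceramidase, ranged from 211 to 387 CPM in young (median 332) and from 286 to 476 CPM in old libraries (median 375). Galc, the galactosylceramidase lost in Krabbe disease, ranged from 66.6 to 132 CPM in young (median 106) and from 87.9 to 148 CPM in old libraries (median 127). For both genes young replicate 6 and old replicate 2 held the lowest value of their group and old replicate 6 the highest of all 12, and the groups overlapped. Their log2 fold changes were 0.27 (95% interval -0.06 to 0.59) and 0.28 (-0.07 to 0.64), with an edgeR adjusted p of 0.77 each. Glb1, the beta-galactosidase of GM1 ganglioside whose activity is read in the senescence stain, ranged from 237 to 263 CPM in young (median 252) and from 201 to 272 CPM in old libraries (median 227). In Glb1, 4 old libraries lay below every young library and old replicates 2 and 3 lay inside or above the young range, with a log2 fold change of -0.10 (-0.26 to 0.06). Of the remaining members placed here, Neu1, the sialidase, was at 185 ± 6.63 and 179 ± 17.8 CPM. Gla, the alpha-galactosidase of Fabry disease, was at 134 ± 9.77 and 139 ± 17.5 CPM. Arsa, arylsulfatase A, was at 56.3 ± 4.15 and 58.7 ± 1.39 CPM. Smpd1, acid sphingomyelinase, was at 49.0 ± 4.20 and 48.5 ± 6.63 CPM, young then old. In these 4 genes the means of the groups differed by less than the larger SD.

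Glycosaminoglycan breakdown was covered by 6 members, 3 positive and 3 negative, with 0 called. Their summed level was 1182 ± 74.7 CPM in the young and 1195 ± 62.5 CPM in the old group. Gusb, beta-glucuronidase, led with 548 to 722 CPM in young (median 614) and 596 to 732 CPM in old libraries (median 629). Ids, the iduronate sulfatase of Hunter disease on the X chromosome, ranged from 41.0 to 63.2 CPM in young (median 55.2) and from 47.7 to 88.9 CPM in old libraries (median 63.1). Ids had the largest log2 fold change of the members, 0.30 (95% interval -0.01 to 0.60), and the groups overlapped. Old replicate 6 held its highest value, and leaving that library out gave 0.20. Galns, the sulfatase lost in Morquio A disease, ranged from 72.6 to 121 CPM in young (median 79.4) and from 66.7 to 82.5 CPM in old libraries (median 76.1). Its log2 fold change of -0.20 became -0.075 without young replicate 6, the library that held 121 CPM. Naglu, which removes N-acetylglucosamine from heparan sulfate, was at 278 ± 20.6 and 269 ± 11.6 CPM, and Sgsh, the heparan sulfamidase, at 95.4 ± 12.4 and 99.0 ± 8.48 CPM.

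Arsb, arylsulfatase B, which acts on dermatan and chondroitin sulfate, varied most of all members, with a coefficient of variation (CV) of 40.6% over 12 libraries. It was picked for a full account after its values were seen. Young replicate 6 held 96.2 CPM, while the remaining young libraries ran from 30.2 to 48.1 CPM. Old replicates 2 and 3 held 64.6 and 59.9 CPM, and the remaining old ones 30.0 to 49.9 CPM. These 3 libraries were also the highest in cell cycle genes, and whether that level plays a part was not tested. The log2 fold change of Arsb was -0.08 (95% interval -0.72 to 0.55), and 0.24 without young replicate 6. With a cell cycle covariate in the fit it was 0.13, at an edgeR adjusted p of 0.78.

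Glycoprotein and glycogen breakdown was covered by 4 members, 2 positive and 2 negative, with 0 called. Man2b1, the lysosomal alpha-mannosidase, ranged from 991 to 1527 CPM in young (median 1273) and from 1123 to 1380.0 CPM in old libraries (median 1246). Manba, the beta-mannosidase and the lowest member per length, ranged from 43.2 to 51.1 CPM in young (median 48.9) and from 44.5 to 52.2 CPM in old libraries (median 49.3). The old values of Man2b1 fell inside the young range, and the ranges of Manba nearly coincided. Fuca1, the alpha-fucosidase, was at 311 ± 22.4 and 305 ± 12.1 CPM, and Gaa, the glycogen-degrading alpha-glucosidase of Pompe disease, at 233 ± 26.5 and 241 ± 12.1 CPM.

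Tpp1, a tripeptidyl peptidase, ranged from 479.8 to 527 CPM in young (median 502) and from 503 to 577 CPM in old libraries (median 537). Its log2 fold change was 0.09 (95% interval -0.03 to 0.21), and the groups overlapped. Ppt1, which removes fatty acyl groups from proteins, had a mean of 181 ± 12.6 CPM in the young and 175 ± 14.7 CPM in the old group. Ppt1 shares exon positions with Cap1, a gene of 868 CPM on the other strand, in counts made without strand, so its level is uncertain.

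Cholesterol handling was covered by 3 members. Lipa, the acid lipase that frees cholesterol from its esters, ranged from 1180.0 to 1405 CPM in young (median 1307) and from 1214 to 1652 CPM in old libraries (median 1352). Npc2, the soluble carrier that takes up the freed cholesterol, ranged from 1527 to 2021 CPM in young (median 1633) and from 1419 to 1709 CPM in old libraries (median 1590). The groups of both genes overlapped, with log2 fold changes of 0.08 and -0.07. Npc1, the membrane protein that receives cholesterol from NPC2, ranged from 183 to 255 CPM in young (median 215) and from 214 to 313 CPM in old libraries (median 249). In Npc1 the low young values came from replicates 5 and 6 and the highest old value from replicate 6, and 5 of 6 old libraries lay above the young median, with the sixth, replicate 2, below it. Its log2 fold change was 0.24 with a standard error of 0.10, an unadjusted edgeR p of 0.033 and an adjusted p of 0.77. Without old replicate 6 it was 0.18 at an adjusted p of 0.999. Npc1 overlaps exons of Rmc1, a gene of 42.3 CPM on the other strand, so its level is uncertain.

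Membrane proteins were covered by 6 members, 3 positive and 3 negative, with 0 called, and summed to 8357 ± 651 CPM in the young and 8373 ± 213 CPM in the old group. Lamp1 and Lamp2 line the inner face of the membrane with glycosylated domains. Lamp1 ranged from 2624 to 3400.1 CPM in young (median 3337) and from 3055 to 3387 CPM in old libraries (median 3288). Lamp2 ranged from 536 to 722 CPM in young (median 659) and from 622 to 779 CPM in old libraries (median 709). In both genes young replicate 6 was the lowest of all 12 libraries. Laptm5, a transmembrane protein of blood cells, ranged from 2476 to 3052 CPM in young (median 2825) and from 2557 to 2836 CPM in old libraries (median 2745). Cd63, a tetraspanin, ranged from 1074 to 1387 CPM in young (median 1318) and from 1167 to 1385 CPM in old libraries (median 1268). The 95% intervals of the log2 fold change were -0.14 to 0.18 for Lamp1, -0.07 to 0.28 for Lamp2, -0.18 to 0.10 for Laptm5 and -0.17 to 0.16 for Cd63. Scarb2, the receptor that carries glucocerebrosidase to lysosomes, was at 271 ± 37.2 and 267 ± 28.7 CPM.

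Mcoln1, the calcium channel mucolipin 1, was the steadiest member, with a CV of 4.02% over 12 libraries. It ranged from 113 to 123 CPM in young (median 118) and from 124 to 129 CPM in old libraries (median 126). All 6 old libraries lay above all 6 young ones, by less than 1 CPM between young replicate 6 and the lowest old library, replicate 4. This was the 1 of 33 members without overlap between groups, against 0.206% of all genes tested, and 0.119% with old above young. The log2 fold change was 0.09 (95% interval -0.01 to 0.19), with an unadjusted edgeR p of 0.085 and an adjusted p of 0.77. The groups overlapped again when scaled by upper-quartile factors or by library size alone.

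Grn, the precursor of granulin peptides, ranged from 4072 to 5834 CPM in young (median 4467) and from 3555 to 4505 CPM in old libraries (median 4274). Young replicate 5 lay above the others and old replicate 6 below them, and the log2 fold change was -0.12 (95% interval -0.33 to 0.08). Leaving out young replicate 5 gave -0.045 and leaving out old replicate 6 gave -0.077. Tfeb ranged from 72.7 to 116 CPM in young (median 96.4) and from 87.7 to 103 CPM in old libraries (median 97.7). Its log2 fold change was -0.02 (-0.22 to 0.19), and old values fell inside the young range.

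**Figure D3:**
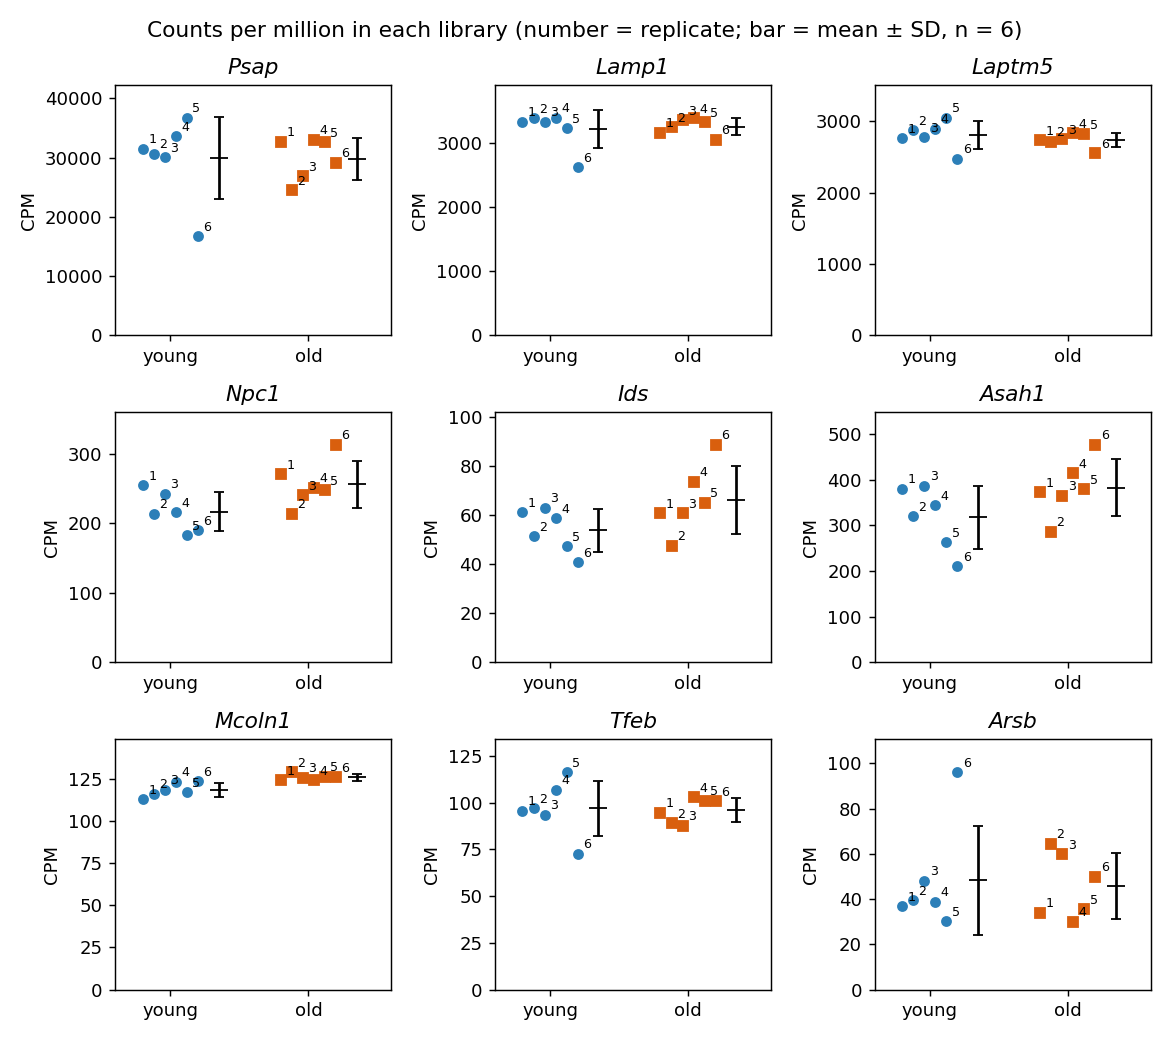
CPM of 9 lysosomal genes in each library, numbered by replicate, with mean ± SD (n = 6 per group) beside the points and axes from 0. Psap, Tfeb and Asah1 are lowest in young replicate 6, Arsb is highest there at 96.2 CPM, and the Npc1, Ids and Asah1 values overlap between groups with old replicate 6 highest.

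The last question was how the members vary among libraries. The CV over 12 libraries had a median of 9.18% and was below 10% for 17 and below 20% for 29 members. Over the 3916 genes tested with at least the mean CPM of the lowest member (47.0 CPM) the median CV was 10.9%. After Mcoln1, the steadiest were Tpp1 (5.14%), Laptm5 (5.43%), Arsa (5.58%), Fuca1 (5.67%) and Manba (5.86%). After Arsb, the most variable were Galc (22.1%), Ids (21.3%) and Asah1 (20.3%).

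Which library was highest or lowest is given by TMM-scaled CPM, and another scaling can change such counts. Young replicate 6 was the lowest young library for 19 of 33 members and the highest for 8. The 19 included Psap, Hexa, Grn, Lamp1, Lamp2, Laptm5, Cd63, Man2b1, Scarb2 and Tfeb. The 8 were Lipa, Gusb, Glb1, Gla, Galns, Mcoln1, Smpd1 and Arsb. Young replicate 5 was highest for 12 members, among them Psap, Grn, Hexa, Npc2, Man2b1, Scarb2 and Tfeb. In the old group, replicate 2 was lowest for 13 members, among them Psap, Cd63, Man2b1, Asah1, Gm2a, Lamp2 and Scarb2. Old replicate 6 was highest for 12 (Npc2, Lipa, Gusb, Asah1, Tpp1, Gm2a, Lamp2, Gla, Galns, Npc1, Ids and Galc) and lowest for 11 (Grn, Lamp1, Hexa, Laptm5, Glb1, Gaa, Neu1, Ppt1, Sgsh, Arsa and Smpd1). Old replicate 6 also had the highest osteoclast marker sum, 443 CPM, most of it Atp6v0d2. The part of that sum in these values was not tested.

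Young replicate 6 and old replicates 2 and 3 were the 3 lowest of 12 libraries for Psap, Cd63, Man2b1, Gm2a and Tfeb, and the 3 highest for Smpd1 and Arsb. The same 3 libraries were the highest in cell cycle genes and at 29855, 36802 and 42198 CPM of macrophage markers, while old replicate 6 was at 41557 CPM and the others at 43322 CPM or more. In the group means, most of this marker sum was Lyz2. The part of cell cycle or macrophage marker levels in the lysosomal levels was not tested. With these 3 libraries left out, 0 of 33 members passed the adjusted threshold in edgeR, against 3 of 12744 genes tested. At an unadjusted p below 0.05 there were 7 members (21.2%), against 18.1% of all genes in the same libraries, a share close to the background. Higher in old among the 7 were Ids (log2 fold change 0.35), Galc (0.30), Npc1 (0.29) and Asah1 (0.27). Lower were Glb1 (-0.19), Ppt1 (-0.14) and Neu1 (-0.13). Their edgeR adjusted p-values ran from 0.18 to 0.26.

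**Figure D4:**
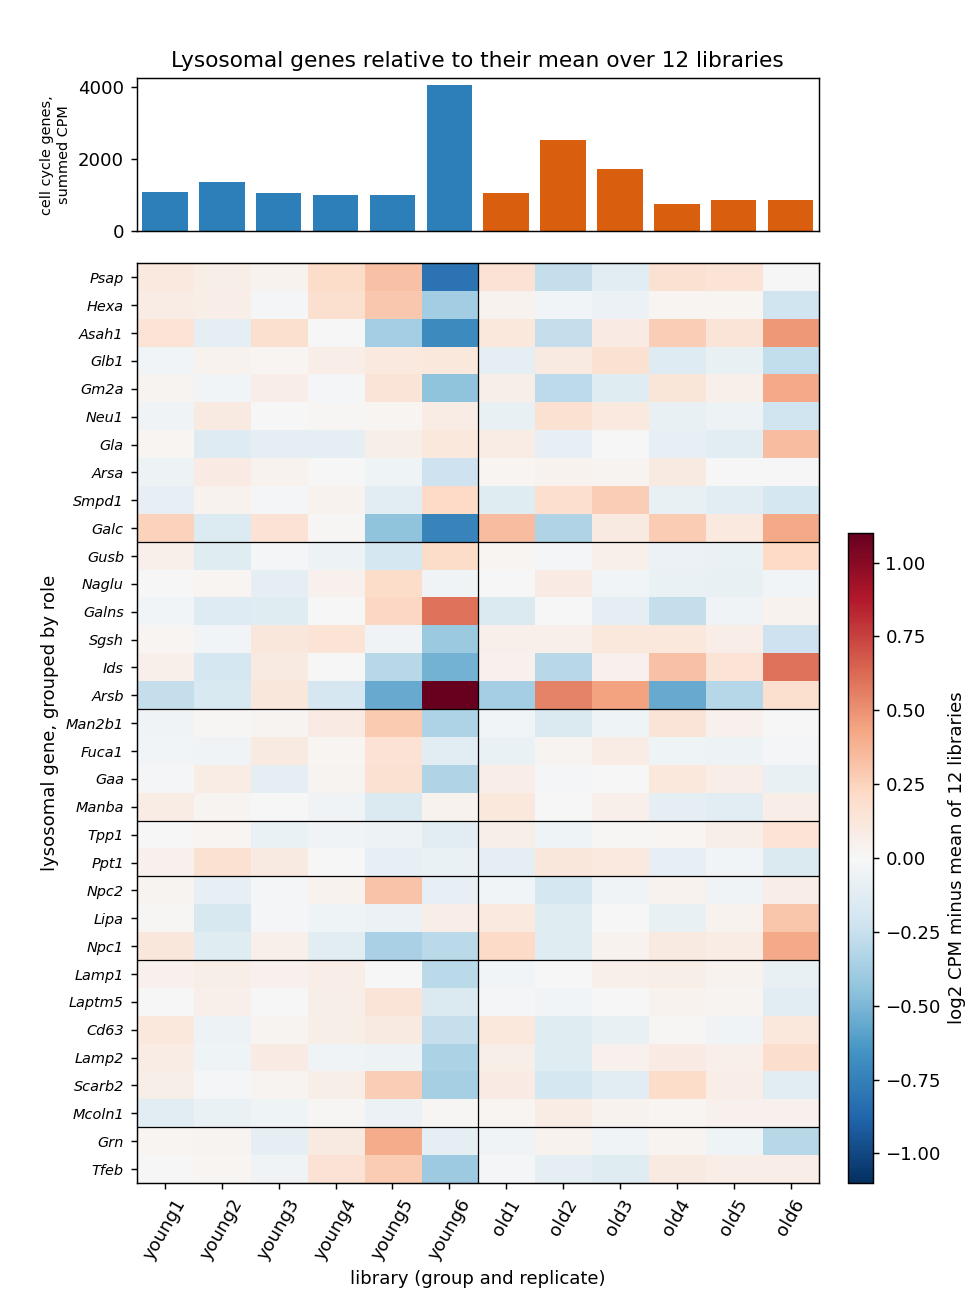
Log2 CPM of each lysosomal gene minus its mean over 12 libraries (colour, red above and blue below the mean), by role, under bars of the summed CPM of 26 cell cycle genes. Young replicate 6, at 4049 CPM of cell cycle genes, is blue for Psap, Asah1, Galc and Ids and red for Arsb and Galns, and old replicate 6 is red for Ids, Asah1, Npc1, Galc and Gm2a.

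In other lists of lysosomal genes 0 genes were called, and their counts are read beside 47.5% positive and 5.47% at an unadjusted p below 0.05 over all genes tested. Whether any list differs from all genes or from the members was not tested. Of 28 other hydrolases and soluble proteins, 15 were positive (median log2 fold change 0.01) and 0 were called in edgeR, with 1 at an unadjusted p below 0.05. That was Epdr1, with a mean of 1.23 ± 0.120 CPM in the young and 2.24 ± 0.885 CPM in the old group (edgeR adjusted p = 0.77). The most abundant of the 28 per length was Creg1, at 835 ± 56.0 and 859.7 ± 57.3 CPM. Of 32 other membrane proteins, 22 were positive (median 0.05), with 0 called and 0 at an unadjusted p below 0.05. Cd68, the macrosialin gene, which is also among the 12 macrophage markers, led them at 2781 ± 370 and 2631 ± 148 CPM, and the lowest p belonged to Tmem192 at 70.2 ± 6.82 and 63.4 ± 3.54 CPM.

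Of 19 genes of sorting and enzyme maturation, 12 were positive (median 0.03), with 0 called and 0 at an unadjusted p below 0.05. M6pr, a mannose 6-phosphate receptor, was at 331 ± 15.5 and 335 ± 18.2 CPM, and Gga3, the gene of lowest p, at 79.3 ± 12.1 and 92.9 ± 10.7 CPM. Of 21 regulators and nutrient sensors, 13 were positive (median 0.06), with 0 called and 2 at an unadjusted p below 0.05. The 2 were Lamtor4, the gene of lowest p, and Lamtor2, subunits of the Ragulator complex that anchors nutrient sensing to the lysosome, at 92.1 ± 3.56 and 82.7 ± 5.76 CPM and at 76.9 ± 6.89 and 65.8 ± 10.4 CPM. Rragc, a GTPase of the same machinery and the most abundant per length, was at 463 ± 30.2 and 453 ± 20.6 CPM. The gene groups left out of the members gave medians of -3.0e-04 for 12 cathepsin genes and -0.03 for 19 proton pump genes, with 0 called in each.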

How the data were processed

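The authors deposited a table of whole-number read counts per gene for 12 libraries, not normalised, and a summary of assigned alignment records. Counting used featureCounts 1.6.0 with annotation from Ensembl release 100 (GRCm38) and no option for strand, pairs or multiple alignments, per the file headers. The submitters' processing notes also list STAR, FastQC and mm10. The library kit was TruSeq RNA v2, per the labels' protocols, and it keeps no strand. Multiply aligned reads were not counted, and if reads were paired, mates counted separately, so counts are not independent molecules. The Wilson interval of a share covers counting error only, while the intervals of log2 fold changes come from the edgeR fit and include the spread between libraries.

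Columns were matched to labels by group letter and replicate number, and symbols came from a gene name table (55141 of 55401 IDs). The chi-square per gene between 2 libraries was at least 4.82, so none was a copy of another. edgeR 4.0.16 in R 4.3.3 fitted the group alone over all 12 libraries (robust quasi-likelihood F test, TMM factors, filterByExpr), with Benjamini-Hochberg adjustment over 12620 genes and two-sided p-values. CPM and RPKM were computed from the counts with TMM factors and the table's exon lengths. Of the 33 members, 10 share exon positions with another gene, which makes their levels and ranks less certain. They are Grn, Lamp1, Hexa, Glb1, Ppt1, Sgsh, Npc1, Arsa, Arsb and Galc. On simulated counts of 12620 genes for old against young, the share found was 4% at a 1.2-fold change, 56% at 1.5-fold, 74% at 2-fold and 98% at 4-fold. The changed genes were drawn from all genes tested, and 121 genes were called, against 2 in the real data. With more calls the adjustment is less strict, so these shares do not give the chance of finding a changed member. The members, lists and alternatives were chosen with earlier results of these data known. Low, median and high values were given for the 10 members highest by RPKM, the 8 of lowest p, Manba, Tfeb, Mcoln1, Npc1, Lamp1 and Lamp2. Of each pathway list, the gene of lowest p and the most abundant per length were given as mean ± SD. Cell cycle and marker sums are sums of CPM over fixed lists. Alternatives were RLE, upper-quartile and library-size scaling, 2 other filters, DESeq2 1.42.0, limma 3.58.1 voom, a replicate block, a cell cycle covariate (mean log2 CPM, prior count 2) and libraries left out. Promoter sequences are RefSeq's for GRCm38.p6. Protein sequences were not used here. The result of 1 marker list is not reported here.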

Additional observations from a re-analysis of the deposited data

Results flagged for a closer look

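Within each group of 6 libraries, a value was singled out where its gap to the nearest other library was, as a share of the group's range, above Dixon's 95% critical value. Chance gives such a gap in about 1 of 20 groups, and of 70 groups of values examined 10 gave 1. These groups reuse the same libraries, so they are not independent, and the share over all genes is not given. Whether the members differ from other genes in such gaps was therefore not tested. Of the 10, 5 came from young replicate 6. Psap was at 16687 CPM there and 30062 to 36743 CPM in the rest of the young group, Lamp1 at 2624 against 3237 to 3400.1 CPM, Lamp2 at 536 against 653 to 722 CPM, and Gm2a at 226 against 301 to 339.6 CPM. Arsb was at 96.2 CPM there against 30.2 to 48.1 CPM. Young replicate 5 gave 2 high values, Grn at 5834 against 4072 to 4691 CPM and Npc2 at 2021 against 1527 to 1672 CPM. Old replicate 6 gave 2 low values, Grn at 3555 against 4259 to 4505 CPM and Sgsh at 82.3 against 100.2 to 105 CPM. Old replicate 4 gave 1 high value, Arsa at 61.3 against 57.6 to 59.0 CPM.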

How the results depend on the processing

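Of the 33 members, 0 were called in the edgeR test and 0 under each of the 22 alternatives, DESeq2 and limma voom included, with a lowest adjusted p of 0.18. At an unadjusted p below 0.05, DESeq2 gave 2 members (6.06%, against 6.02% of all genes). Voom gave 1 (3.03%, against 5.25% of all genes). Between 15 and 21 members were positive, with 21 by library size alone and without young replicate 5 or old replicate 2. Npc1 was below an unadjusted p of 0.05 in 16 of the 22 alternatives, which reuse the same libraries and are not independent. Over all genes, 2 were called in the main test, 4 without a low-count filter, 11 by DESeq2, 3 by voom and 5 with the cell cycle covariate. With a library left out, 1 (without young replicate 4) to 5 (without young replicate 3) were called. With the replicate number as a block, 4 genes and 0 members were called. Same-numbered libraries did not all deviate together (correlations of -0.17 to 0.39 between young and old of a number), so numbers were not taken as pairs. The first 10 members by RPKM were the same set in every library. That alone fixes the same set by median, in either group and with any library left out. Of these 10, 9 were among the first 10 by CPM. Depth limits little here, since the lowest count of a member in a library was 642 (Arsb).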
